A study of Pinellia ternata with 12 samples.

Results

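Described here are 2 class I small heat shock protein unigenes, TRINITY_DN64037_c2_g2 and TRINITY_DN69742_c2_g1. They are among the 208217 unigenes assembled from leaf RNA of Pinellia ternata, a tuber-forming herb of the arum family. Other class I rows of the assembly are given further below. The pair was chosen because the study's Swiss-Prot search matched both to class I proteins, of soybean (Glycine max) and alfalfa (Medicago sativa) respectively, and because both had been seen to be higher after heat. The difference between heat and control therefore entered the choice, and it is given below as a description without a test. A unigene is a cluster of transcripts assembled from the reads themselves, since no genome was used, and its name has the read cluster (DN), the component (c) and the gene-level cluster (g). All seedlings were raised from tubers at 25 ℃ with 16 h of light at 4000 lx and 8 h of darkness. Leaf RNA was taken from 3 control samples with 0 h of heat (day 0, normal leaf) and from 3 samples after 24 h at 40 ℃ (day 1), as biological replicates. All controls were of day 0 and all heat samples of day 1, so heat and sampling day cannot be told apart. The plants were wild type of no named variety, their age in days and the number of plants per sample were not given, and a treatment tag calls all 6 samples heat-treated, so the groups follow the titles and sources.

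Small heat shock proteins are built around an alpha-crystallin domain and assemble into large oligomers. They bind proteins that begin to unfold and keep them from aggregating, without using ATP, until HSP70 and the disaggregase ClpB (HSP101) refold them. Plants have several classes of them, named by sequence and by location. Class I and class II proteins are found in the cytosol, and other classes are found in organelles such as peroxisomes. In leaves their transcripts are commonly scarce at moderate temperature and accumulate when heat stress transcription factors are active. In the study's annotation both unigenes were placed in the cytoplasm, and both matched the alpha-crystallin domain of the HSP26 type and the small heat shock protein group of KOG. TRINITY_DN64037_c2_g2 was closest to a class I small heat shock protein already known from P. ternata, whereas TRINITY_DN69742_c2_g1 was closest to an unnamed Eucalyptus grandis protein and was also assigned to the Hsp20 family of Pfam.

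TRINITY_DN64037_c2_g2 was scarce in every control leaf and among the most abundant transcripts in every heated leaf. In TPM, a transcript abundance per length that sums to the same total in each library, it stood at 5.86, 7.16 and 5.10 in control replicates 1 to 3. In heat replicates 1 to 3 it stood at 1129, 744.5 and 2688 TPM. Each heat library was far above each control library, and the groups did not overlap. Every heat library lay above every control, by any margin, in 22.0% of the 68978 unigenes tested. The means were 6.04 ± 1.04 and 1520.5 ± 1029 TPM (SD, n = 3 in each group), a ratio of 252. Taken singly, the heat libraries were 187, 123 and 445 times the control mean. On the log2(TPM + 1) scale the difference between the group means was 7.55, and 20 of the 68978 unigenes that averaged 1 TPM or more had a larger one. Heat replicate 3 decided much of the mean, which was 936.8 TPM, or 155 times the control mean, without that library. TPM is a share of the RNA in a leaf sample, so that more transcript per cell and more cells with the transcript cannot be told apart here.

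TRINITY_DN69742_c2_g1 followed the same pattern from a higher base and to a lower level. It stood at 11.4, 10.3 and 9.94 TPM in control replicates 1 to 3, values that lay close together. Under heat it stood at 454, 239 and 744 TPM in replicates 1 to 3. Again no heat library came near a control library. The means were 10.5 ± 0.750 and 479 ± 253 TPM (SD, n = 3 in each group), a ratio of 45.5. The single heat libraries were 43.1, 22.7 and 70.6 times the control mean, lowest in replicate 2 and highest in replicate 3. The difference on the log2(TPM + 1) scale was 5.23, with 57 of the tested unigenes above it. Without heat replicate 3 the heat mean was 346 TPM, 32.9 times the control mean.

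**Figure D1:**
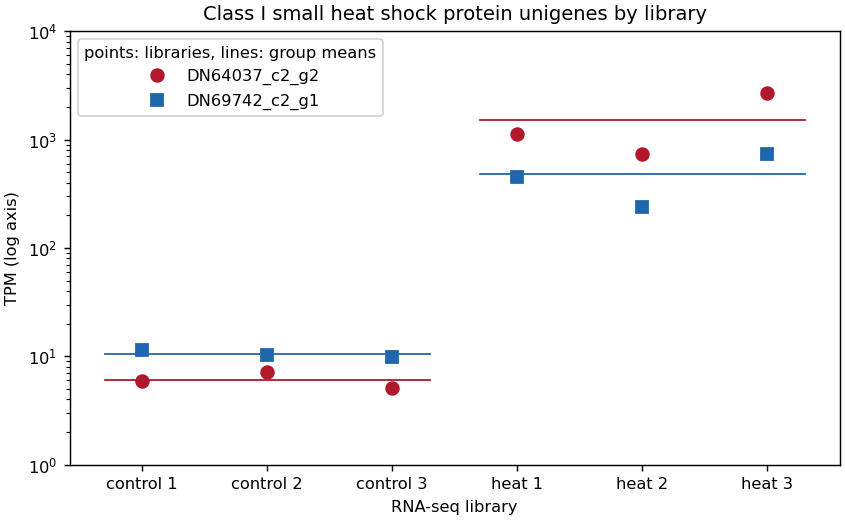
TPM on a log axis of the 2 class I unigenes in each of the 6 RNA-seq libraries (points), with a line at the mean of each group. Both are between 5.10 and 11.4 TPM in the controls and between 239 and 2688 TPM under heat, and the order of the 2 unigenes is reversed between the groups.

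The order of the pair differed between the control and the heat libraries. TRINITY_DN69742_c2_g1 was the higher of the pair in all 3 control libraries, and TRINITY_DN64037_c2_g2 was the higher in all 3 heat libraries. The TPM of TRINITY_DN64037_c2_g2 divided by that of TRINITY_DN69742_c2_g1 was 0.516, 0.697 and 0.513 in control replicates 1 to 3. The same quotient was 2.49, 3.12 and 3.61 in heat replicates 1 to 3. Its mean went from 0.575 ± 0.105 to 3.07 ± 0.565 (SD, n = 3 in each group), a gap that exceeded the spread in either group. Since TPM is scaled by length, the levels of both unigenes can be set side by side, although a unigene need not hold a whole transcript.

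Ranked by TPM among all 208217 unigenes, both stood far higher in the heat libraries than in the controls. TRINITY_DN64037_c2_g2 held ranks 21365, 16844 and 22448 in control replicates 1 to 3. It held ranks 68, 126 and 19 in heat replicates 1 to 3, so that in heat replicate 3 only 18 unigenes exceeded it. Its share of the total TPM was at most 0.000716% in a control library, and under heat it was 0.113%, 0.0745% and 0.269% in replicates 1 to 3. TRINITY_DN69742_c2_g1 ranked 11448, 12066 and 12416 in the controls and 209, 375 and 109 under heat. Its share went from at most 0.00114% in a control library to 0.0454%, 0.0239% and 0.0744% in heat replicates 1 to 3. Together the pair made up 0.158%, 0.0983% and 0.343% of all TPM in heat replicates 1 to 3. In heat replicate 3 the level of TRINITY_DN64037_c2_g2 was 18.3% of that of the most abundant unigene of the library, which stood at 14716.5 TPM.

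In both unigenes the control leaves lay closer together than the heated leaves did. The spread within a group was not part of the choice of the pair. For TRINITY_DN69742_c2_g1 the SD of log2(TPM + 1) over the controls was 0.0926, smaller than in most unigenes. Of the 23404 unigenes whose control mean reached 5 TPM, 8.32% had a smaller one, and their median was 0.286. TRINITY_DN64037_c2_g2 had an SD of 0.212 in the controls, with 33.7% of those unigenes below it. Over the heat libraries the SD of log2(TPM + 1) was 0.944 for TRINITY_DN64037_c2_g2 and 0.820 for TRINITY_DN69742_c2_g1. Among the 1032 unigenes whose heat mean reached 100 TPM, 87.8% and 84.7% respectively had a smaller SD, and the median was 0.373. These are descriptions over 3 libraries per group, from which an SD is imprecise. The highest heat library was 3.61 times the lowest for TRINITY_DN64037_c2_g2 and 3.11 times for TRINITY_DN69742_c2_g1.

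Both unigenes put the heat libraries in the same order, with replicate 2 lowest, replicate 1 in the middle and replicate 3 highest. That order was found in 20.1% of all tested unigenes and in 15.5% of those called higher under heat. The heat libraries also differed in virus RNA, which the controls all but lacked. The 11 unigenes matching polyproteins of potyviruses, which are RNA viruses of plants, summed to 606, 4408.5 and 3419.7 TPM in heat replicates 1 to 3, with all 11 above 0 in each. In the controls they summed to between 0 and 0.0611 TPM, with 2, 1 and 0 of them above 0 in replicates 1 to 3. The order of the heat libraries by this sum was not that by class I transcripts, but the single virus rows differed in order. Some were highest in heat replicate 2 and others in heat replicate 3. The part of the virus RNA in the differences within and between groups was not tested. Abundant leaf genes such as those of Rubisco or light-harvesting proteins were not named in the annotation used here. The 5 chloroplast markers that were named, of Rubisco assembly and of the chloroplast chaperonin, were above 0 in all 6 libraries, and summed to between 126 and 154 TPM in the controls and between 406 and 534 TPM under heat. They had been picked as rises on these libraries.

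Unigenes that carry the same DN number came from the same group of overlapping reads, so their values may rest in part on shared reads. There were 4 such rows, 2 for each number. TRINITY_DN64037_c2_g1 belongs to the same component as TRINITY_DN64037_c2_g2 and was matched to the same P. ternata class I protein, and by Swiss-Prot to a class I protein of carrot (Daucus carota). It was at 1.42, 2.17 and 0.740 TPM in control replicates 1 to 3 and at 32.6, 33.3 and 86.0 TPM in heat replicates 1 to 3. It was thus higher in each heat library, with replicate 3 highest and the others nearly equal. The level of TRINITY_DN64037_c2_g2 divided by that of TRINITY_DN64037_c2_g1 did not stay constant between the groups. This quotient was 4.12, 3.30 and 6.89 in control replicates 1 to 3 and 34.6, 22.4 and 31.3 in heat replicates 1 to 3. If the means of both rows were added, TRINITY_DN64037_c2_g2 would still hold most of the sum, since TRINITY_DN64037_c2_g1 had a heat mean of 50.6 ± 30.6 TPM (SD, n = 3). The remaining row, TRINITY_DN64037_c1_g1, was in another component and stayed low, with 2.30, 0.507 and 0.275 TPM in the controls and 0.669, 0.891 and 1.11 TPM under heat. Its groups overlapped, and its mean of 0.958 TPM over the 6 libraries kept it out of the test.

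No other row of component 2 was found for DN69742. Its other components held TRINITY_DN69742_c0_g1 and TRINITY_DN69742_c1_g1, neither of which had a name in the annotation at hand. TRINITY_DN69742_c0_g1 was at 0.405 TPM in control replicate 1 and listed at 0 in the other controls, and it was at 33.1, 8.87 and 62.0 TPM in heat replicates 1 to 3. In limma on log2(TPM + 1), adjusted over all 68978 tested unigenes, the fold change of TRINITY_DN69742_c0_g1 was 4.63 ± 0.56 in log2 units (standard error), at an adjusted p of 0.00118. It was higher in all 3 heat libraries, which stood in the same order as for TRINITY_DN69742_c2_g1. TRINITY_DN69742_c1_g1 was at 1.36, 0 and 0.774 TPM in control replicates 1 to 3 and at 5.22, 3.72 and 7.95 TPM in heat replicates 1 to 3. Its limma fold change was 1.99 ± 0.38 in log2 units (standard error), at an adjusted p of 0.0114. Without heat replicate 3 the limma fold change of TRINITY_DN69742_c1_g1 was 1.75 in log2 units and it was not called, at an adjusted p of 0.05004. A call in limma needed more than 1 log2 unit of change together with an adjusted p below 0.05, and by it 6.0% of the tested unigenes were higher under heat and 4.05% lower. These shares depend on the scaling and on single libraries, since 4142 higher and 2793 lower calls became 2928 and 3906 after rescaling by the median ratio, and the higher calls ran from 1468 without control replicate 3 to 6303 without heat replicate 1. The rows TRINITY_DN64037_c2_g1, TRINITY_DN69742_c0_g1 and TRINITY_DN69742_c1_g1 were all called higher, which, with possible shared reads, is not evidence apart from that of the class I pair.

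**Figure D2:**
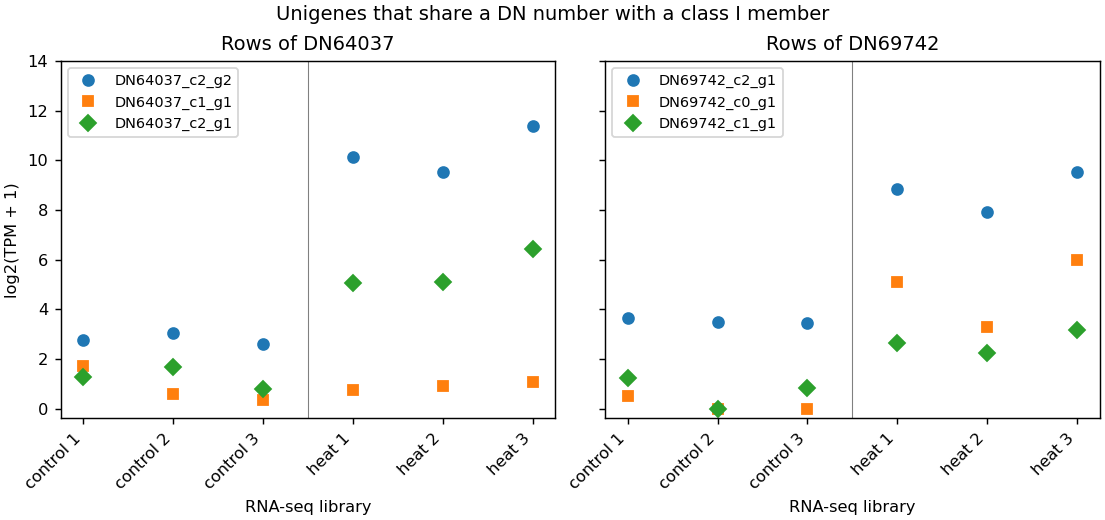
log2(TPM + 1) by library for the rows of DN64037 and of DN69742, with the controls left and the heat libraries right of the line. TRINITY_DN64037_c1_g1 stays between 0.275 and 2.30 TPM in all 6 libraries, whereas the other rows are higher in each heat library than in any control.

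Among the 8 named small heat shock protein unigenes, the class I pair was the minor part in the controls and the major part under heat. The pair was chosen for its rise and the list holds rises only. A larger share under heat was thus favoured by the choice, and the shares are not those of the whole family. In the controls the highest of the 8 was TRINITY_DN53826_c0_g3, matched to a class II protein of pea, at 40.2, 47.9 and 30.8 TPM in replicates 1 to 3. Under heat the same row was at 137, 104 and 99.2 TPM and was exceeded by both class I unigenes in every library. The sum of the 8 rows was 74.1, 84.9 and 54.8 TPM in the controls, and with heat it reached 1835, 1192 and 3718 TPM. Of that sum the pair held 23.3%, 20.5% and 27.4% in the controls. It held 86.2%, 82.5% and 92.3% under heat, of which TRINITY_DN64037_c2_g2 alone made up 61.5%, 62.5% and 72.3%. TRINITY_DN69742_c2_g1 changed its part of the sum less, with 15.3%, 12.1% and 18.1% in control replicates 1 to 3 and 24.7%, 20.0% and 20.0% in heat replicates 1 to 3. A sum over unigenes counts a transcript more than once where it was assembled in pieces.

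**Figure D3:**
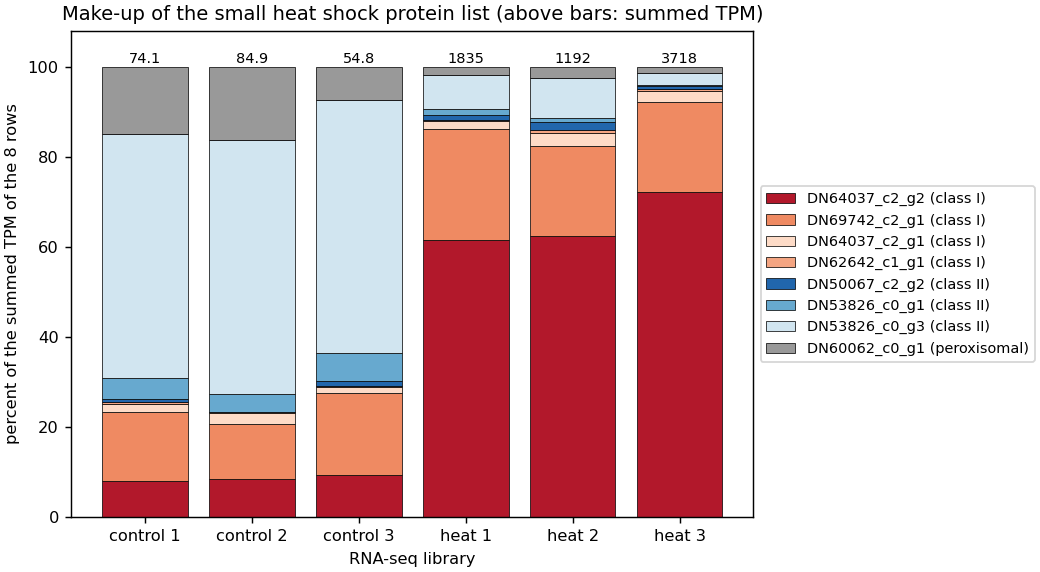
Share of each of the 8 small heat shock protein unigenes in their summed TPM, by library, with the sum above each bar. The class I pair takes between 20.5% and 27.4% in the controls and between 82.5% and 92.3% under heat, while the class II rows take between 59.7% and 63.5% in the controls and between 3.41% and 11.5% under heat.

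Of the 6 rows other than the pair, all 6 were called higher in limma, against 6.0% of the tested unigenes, and in all 6 every heat library lay above every control, as in 22.0% of the tested unigenes (the reverse held in 11.2%). The study had picked them as rises on these same libraries, so the count is not independent evidence of a rise. TRINITY_DN64037_c2_g1 shares a component with a member, and the TRINITY_DN53826 rows share a component, so the 6 are not separate cases. Their median log2 fold change was 2.56 (1.5 to 4.29), beside 0.167 over all tested unigenes. The fourth class I row, TRINITY_DN62642_c1_g1, was all but absent in the controls, at 0.209, 0.0891 and 0.216 TPM, and stood at 3.76, 8.59 and 23.4 TPM in heat replicates 1 to 3. Class II members differed from the pair in the order of the heat libraries. TRINITY_DN50067_c2_g2, class II by Swiss-Prot and closest to a small heat shock protein known from P. ternata, was at 0.491, 0 and 0.517 TPM in the controls and at 20.0, 20.3 and 18.4 TPM under heat, nearly the same in all 3 heat libraries. TRINITY_DN53826_c0_g1, in the same component as TRINITY_DN53826_c0_g3, was at 3.51, 3.56 and 3.46 TPM in the controls and at 26.1, 13.1 and 9.17 TPM under heat. Both TRINITY_DN53826 rows were highest in heat replicate 1 and lowest in heat replicate 3, where the class I rows were highest. TRINITY_DN60062_c0_g1, matched to a peroxisomal member of rice, was at 11.01, 13.8 and 4.01 TPM in the controls and at 33.3, 29.5 and 50.3 TPM under heat. Whether the classes differ in these orders was not tested.

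Most chaperones of other kinds were also higher under heat, in a list drawn from an annotation that holds rises only. The list held 23 unigenes of HSP70, ClpB, DnaJ, chaperonins and co-chaperones, 2 of them matched to bacterial proteins. Of these 23, 21 were called higher in limma, against 6.0% of the tested unigenes, none lower and 2 not called. The median log2 fold change of the 23 was 1.78 (0.89 to 4.37). They too had been picked as rises on these libraries. The ratio of the means was larger than that of TRINITY_DN69742_c2_g1 in 1 of the 23, TRINITY_DN71352_c3_g2, matched to a bacterial DnaJ and singled out after its values were seen. It was at 0.311, 1.63 and 0.690 TPM in the controls and at 72.1, 21.3 and 30.3 TPM under heat, a ratio of 47.1 beside 45.5, although its log2 fold change of 4.37 was below the 5.23 of TRINITY_DN69742_c2_g1. None of the 23 reached the heat mean of TRINITY_DN69742_c2_g1. The highest was TRINITY_DN50507_c2_g4, of the heat shock cognate HSP70 type, with 223 ± 34.6 TPM in heated leaves and 79.8 ± 5.85 TPM in control leaves (SD, n = 3). Of the same component, TRINITY_DN50507_c2_g1, also of that type, reached 125 ± 33.9 TPM, from 46.8 ± 5.58 TPM in control leaves (SD, n = 3). In controls, then, both HSP70 rows were above the class I pair, and under heat both were below it. TRINITY_DN71293_c3_g5, matched to ClpB1, a disaggregase that takes proteins out of aggregates, had a control level of 10.9 ± 2.67 TPM, near that of TRINITY_DN69742_c2_g1, and reached 91.0 ± 28.3 TPM (SD, n = 3). TRINITY_DN47353_c0_g1, a DnaJ co-chaperone that hands clients to HSP70, was at 66.0, 57.7 and 56.6 TPM in the controls and at 205, 88.1 and 178 TPM under heat. Of the chaperonins of the chloroplast, TRINITY_DN64853_c0_g1 reached 197 ± 30.5 TPM, from 73.6 ± 8.00 TPM, and TRINITY_DN60971_c0_g3 reached 117 ± 37.0 TPM, from 38.9 ± 9.22 TPM (SD, n = 3). Heat replicate 2, the lowest for the class I pair, was also the lowest heat library in 18 of the 23 chaperones, beside 41.3% of all tested unigenes and 25.4% of those called higher. The full order of the pair was found in 8 of the 23, beside 20.1% of all tested unigenes. Of the 6 other small heat shock proteins, 1 was lowest in replicate 2. Several of the 23 rows share a component, so they are not separate cases. Summed, the 23 rows came to 1625, 1066 and 1621 TPM with heat and to between 410 and 438 TPM in the controls. Of the regulators, 6 of 7 unigenes of heat stress transcription factors and MBF1 coactivators were called higher in limma, against 6.0% of the tested unigenes, and these 7 too came from names at hand for rises only, so that a regulator that fell could not be among them. The highest under heat, TRINITY_DN55643_c0_g2 and TRINITY_DN55643_c0_g1, both MBF1b, were at 196 ± 7.46 and 124 ± 35.6 TPM (SD, n = 3) and also stayed below both class I unigenes.

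**Figure D4:**
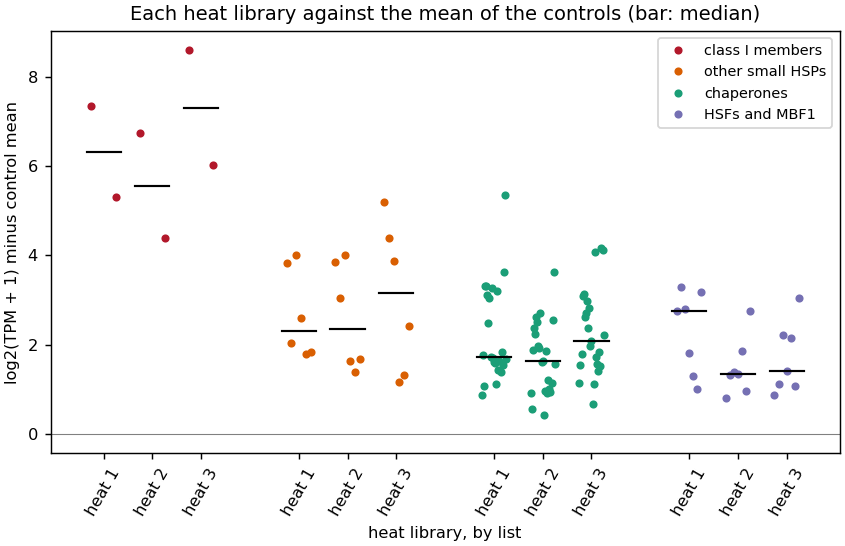
log2(TPM + 1) of each heat library minus the mean of the controls, by unigene (points), for the class I pair, the other 6 small heat shock proteins, 23 chaperones and 7 heat stress factors and MBF1 coactivators, with the median as a bar. The median of the pair is at 6.32, 5.56 and 7.30 in heat replicates 1 to 3, and that of the chaperones at 1.73, 1.64 and 2.08.

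**Figure D5:**
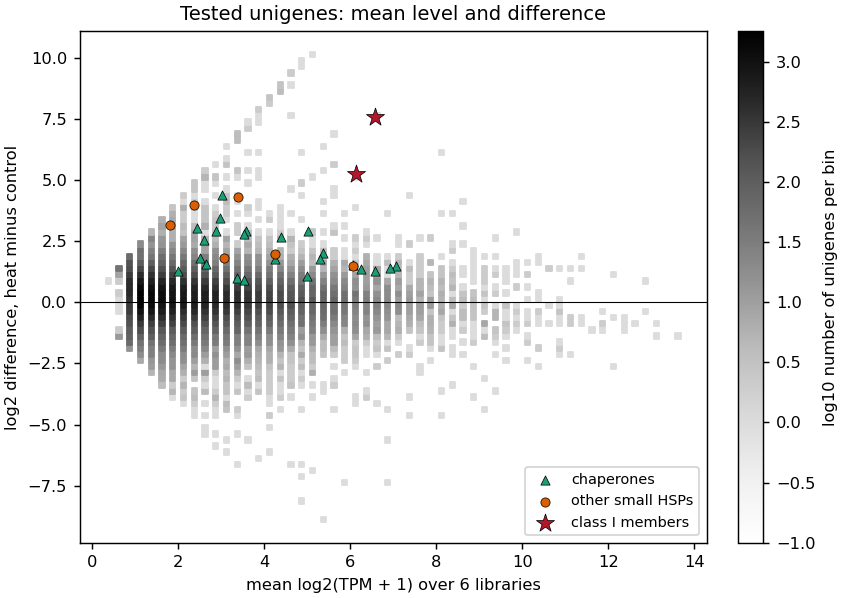
Mean log2(TPM + 1) over the 6 libraries against the log2 difference, heat minus control, of the 68978 tested unigenes (grey bins, shaded by the log10 number of unigenes), with the class I pair, the other small heat shock proteins and the chaperones marked. The pair is at differences of 7.55 and 5.23, above all other marked rows on this scale, and it was chosen for that difference. By the ratio of the means, without the added 1 TPM, TRINITY_DN69742_c2_g1 (45.5) was below TRINITY_DN62642_c1_g1 (69.8), TRINITY_DN50067_c2_g2 (58.1) and TRINITY_DN71352_c3_g2 (47.1).

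The unigenes most like each class I member were sought by the root mean square difference of log2(TPM + 1), centred on each unigene's own mean over the 6 libraries. The likeness covers the step between groups as well as the order within them, and at low levels it depends on the added 1 TPM. Closest to TRINITY_DN69742_c2_g1 was TRINITY_DN47986_c0_g1, at a difference of 0.0729, with 0.701, 0.702 and 0.517 TPM in the controls and 63.1, 33.5 and 117 TPM under heat. TRINITY_DN70225_c3_g1, TRINITY_DN51107_c0_g2, TRINITY_DN70225_c3_g3 and TRINITY_DN60307_c1_g1 followed, at 0.169, 0.211, 0.236 and 0.242. TRINITY_DN64037_c2_g2 had no such close partner. Closest to it was TRINITY_DN60307_c2_g2, at a difference of 0.444, with 3.40, 2.89 and 4.49 TPM in the controls and 429, 372 and 993 TPM under heat. After it came TRINITY_DN75041_c3_g3, a potyvirus row listed at 0 in all controls, at 0.625, and then TRINITY_DN46780_c0_g1, TRINITY_DN49714_c1_g2 and TRINITY_DN72211_c1_g4 at 0.697, 0.709 and 0.724. Apart from the potyvirus row none of these had a name in the annotation at hand. The class I pair were at 1.18 from each other, place 36 in the list of TRINITY_DN64037_c2_g2 and place 118 in that of TRINITY_DN69742_c2_g1. Their log2 differences between heat and control, 7.55 and 5.23, entered the choice of the pair and also enter this value. Both put the heat libraries in the same order. The row TRINITY_DN69742_c0_g1, with which reads may be shared, held place 16 for TRINITY_DN69742_c2_g1 at 0.456, and TRINITY_DN64037_c2_g1 held place 78 for TRINITY_DN64037_c2_g2 at 1.65.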

How the data were processed

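The authors sequenced strand-specific leaf libraries on a HiSeq2500 instrument, filtered the reads, assembled them with Trinity and deposited TPM values estimated with Salmon, without read counts. Each of the 6 columns summed to the same total, so neither library depth nor the reads behind a value can be read from them. All 6 libraries entered the reported values, and none was imputed. Since batches and plants per library were not given, p-values set a difference against the spread between these samples alone. In limma that spread draws in part on all tested unigenes.

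For the 68978 unigenes averaging 1 TPM or more, log2(TPM + 1) was fitted with limma (version 3.58.1, R version 4.3.3) using eBayes with a trend. The added 1 TPM understates the change of low unigenes. Calls needed more than 1 log2 unit of change in size and a p, adjusted by Benjamini-Hochberg, below 0.05. Alternatives were another pseudocount, 2 filters, 2 scalings, robust eBayes, the replicate number as a block, and the loss of each single library. The procedure was tested on simulated data. The members, lists and tests were chosen with earlier results of these data known. Names are Swiss-Prot matches from a shortened copy of the study's annotation that holds rises only, whose own fold changes and p-values were not used. Named items were the pair, every row in their components and rows of other components of their DN numbers that averaged 1 TPM or more, the 8 small heat shock proteins, the chaperones (6) and regulators (2) highest under heat, and the 5 unigenes most like each member. TRINITY_DN64037_c1_g1 (0.958 TPM) was named beyond that rule. The miRNA table was not analysed here. Unigene sequences were not analysed here.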

Additional observations from a re-analysis of the deposited data

How the results depend on the processing

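Among the 13 alternatives, the 2 filters, robust eBayes and the replicate block cannot change a difference of group means. Under all 13, the log2 differences of the class I pair moved by less than 1 SD of their replicates. For TRINITY_DN64037_c2_g2 they were 7.04 to 7.96 with a library left out and 7.35 to 7.75 otherwise, and for TRINITY_DN69742_c2_g1 4.84 to 5.66 and 5.03 to 5.35. Left-out libraries gave heat quotients of the pair of 2.80 to 3.37. Called higher were 7 to 8 small heat shock proteins, 15 to 22 chaperones, 4 to 6 regulators and 2 to 3 rows of the same DN numbers. The 8 include the pair, which was chosen for its rise, and the lists hold rises only. These counts are therefore not evidence of a rise, and in the main fit 6.0% of the tested unigenes were called higher. TRINITY_DN69742_c1_g1 lost its call without heat replicate 3. Over all unigenes 4142 were called higher and 2793 lower. No filter on TPM gave 2207 and 1715, and requiring 5 TPM in the higher group gave 2634 higher. Higher calls were 2031, 1802 and 1468 without control replicates 1 to 3 and 6303, 2026 and 1486 without heat replicates 1 to 3, and lower calls were 1439, 1757 and 1336, and 3751, 1526 and 1560. Rescaling by the median ratio, which took the median log2 fold change from 0.167 to 0.0103, gave 2928 and 3906, and quantile normalization 2976 and 3590. With the replicate number as a block, counts were 3296 and 2479, and no call of the pair's DN rows changed. Same-numbered libraries deviated together with r of −0.135, −0.0562 and 0.145, and control replicate 1 went best with heat replicate 2 (0.253), so the numbers were not taken as pairs. The number of reads behind a TPM value is unknown, which limits the low control values most.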
